A study of Mus musculus with 30 samples.

Results

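The cell cycle and DNA replication genes described here are 39 listed genes that proliferating cells transcribe to copy and divide their chromosomes. They were matched by gene symbol, in the platform annotation, to probe sets that carry a single symbol, which gave 38 of the 39 genes with 86 probe sets, among 18193 genes on the array. Where a gene had several sets, the brightest over all 30 arrays stood for it. Of the matched genes, 17 act up to and during replication and 21 act in mitosis. Ccnb1, the mitotic cyclin B1, was not analysed here on the array. All 38 genes passed the filter on dim probe sets in liver and 37 passed it in lung, where Tyms, the thymidylate synthase gene, lay too low.

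CD-1 mice, an outbred stock with no engineered allele, received the potassium salt of perfluorooctane sulfonate (PFOS), a surfactant that persists in tissue, by oral gavage in 0.5% Tween 20 on gestation days 1 to 17. The doses were 0 (vehicle alone), 5 (the lower dose) and 10 mg/kg/day (the higher dose), and fetal liver and fetal lung were taken on gestation day 18. Each array holds RNA pooled from 3 fetuses of 1 litter, so the litter is the replicate, with 5 litters for each tissue and dose, and the labels leave unsaid whether liver and lung were taken from 1 set of litters. All values are log2 probe set levels, and a change is a difference of mean log2 levels with n = 5 litters per group. Where changes are given in pairs, the lower dose comes before the higher dose. A gene was called at a limma adjusted p under 0.05 (Benjamini-Hochberg), with 13269 genes in the liver family and 12897 in the lung family.

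The cell cycle runs through a commitment step, replication and mitosis. Cyclins D and E with their kinases release E2F factors, which switch on the replication genes. The MCM helicase is loaded on origins by CDC6 and CDT1 and then drives the fork. A later wave of genes, bound by the DREAM complex in resting cells and by B-MYB and FOXM1 in dividing ones, builds the spindle, the kinetochore and the mitotic kinases. The liver of a late fetus is also the main site of blood formation, so dividing erythroid and myeloid precursors share it with hepatocytes.

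Across probe sets, litters of a group correlated at 0.990 to 0.995 (Pearson's r, not independent between probe sets). The tissue labels matched their defining markers. The surfactant gene Sftpc averaged 5.18 in unexposed liver and 13.58 in unexposed lung. The albumin gene Alb averaged 13.85 in unexposed liver and was also high, at 12.25, in unexposed lung. Cym, a gastric protease gene, stood at 11.27, 9.50 and 8.20 in control livers 2, 3 and 5, against 5.05 and 5.28 in control livers 1 and 4, and counts are therefore also given without those 3 litters.

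In unexposed fetuses the cell cycle genes were higher in liver than in lung. Of the 37 genes tested in both tissues, 36 were higher in liver and 1 was lower. The background was 40.8% of 12310 genes higher and 41% lower. The median difference of these genes was 1.74 on the log2 scale, against 0.01 over all genes tested. Cdc6, which loads the MCM helicase, had the largest difference, with 8.07 ± 0.23 in liver and 4.70 ± 0.41 in lung (SD, n = 5 each), a 10.3-fold higher level in liver. Expressed as folds, Rrm2, the small subunit of ribonucleotide reductase, was 6.62-fold higher, and Mki67, the gene of the proliferation antigen Ki-67, was 4.56-fold higher. Kif23, a kinesin of cytokinesis, was 2.13-fold higher, near the low end of the mitosis genes. Ccnd1, cyclin D1, was the gene that ran the other way, with 6.92 ± 0.18 in liver and 8.98 ± 0.19 in lung, a log2 difference of -2.06 (limma adjusted p = 4.28e-17). In these bulk samples fewer dividing cells and less RNA per dividing cell cannot be told apart.

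**Figure D1:**
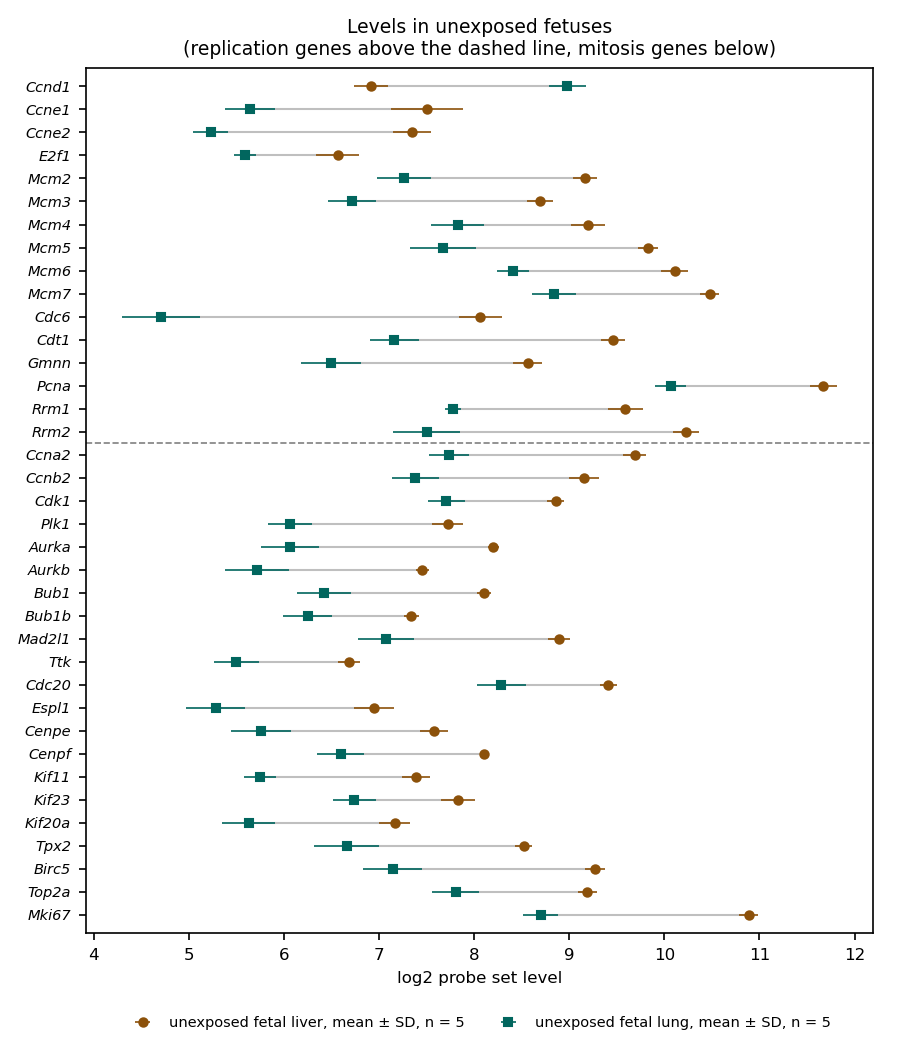
Mean log2 level of each cell cycle gene in unexposed fetal liver (circles) and unexposed fetal lung (squares), with SD over 5 litters as bars. Every gene shown except Ccnd1 lies to the right in liver, and Cdc6 has the widest gap, 8.07 against 4.70.

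In fetal liver the cell cycle genes were lower after PFOS as a group, by small amounts. At the lower dose 9 of 38 genes fell and 0 rose, against 1.81% of all genes tested that fell and 4.26% that rose. The genes called were Gmnn, Pcna, Rrm2, Cenpe, Cenpf, Tpx2, Birc5, Top2a and Mki67. After the higher dose 6 of 38 fell and 0 rose, against 5.22% that fell and 5.3% that rose, and the genes called were Mcm5, Pcna, Cenpe, Cenpf, Kif23 and Tpx2. Pcna, Cenpe, Cenpf and Tpx2 were called at both doses, and 27 genes were called at neither. The comparisons share the unexposed litters.

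All 38 fitted changes lay below 0 at each dose, where 54% of all genes at the lower dose and 56.5% at the higher dose did. The median change was -0.24 at the lower dose, with a range of -0.38 to -0.13, against -0.01 over all genes. For the higher dose it was -0.20, with a range of -0.37 to -0.10, against -0.02 over all genes. An unadjusted p under 0.05 was reached by 25 of the 38 genes at each dose, where 19.8% and 24% of all genes reached it. The litters of the groups did not overlap for 9 genes at the lower dose (2.77% of all genes, lower) and for 2 genes, Cenpf and Tpx2, at the higher dose (4.41%).

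The shift was seen litter by litter. The median deviation of the 38 genes from the mean of the unexposed livers was 0.10, 0.05, -0.14, 0.01 and -0.02 in unexposed litters 1 to 5. It was -0.37, -0.18, -0.15, -0.20 and -0.28 in the litters at the lower dose, all lower than every unexposed litter. It was -0.19, -0.00, -0.30, -0.35 and -0.19 in the litters at the higher dose, of which litter 2 lay among the unexposed litters and the other 4 below them.

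**Figure D2:**
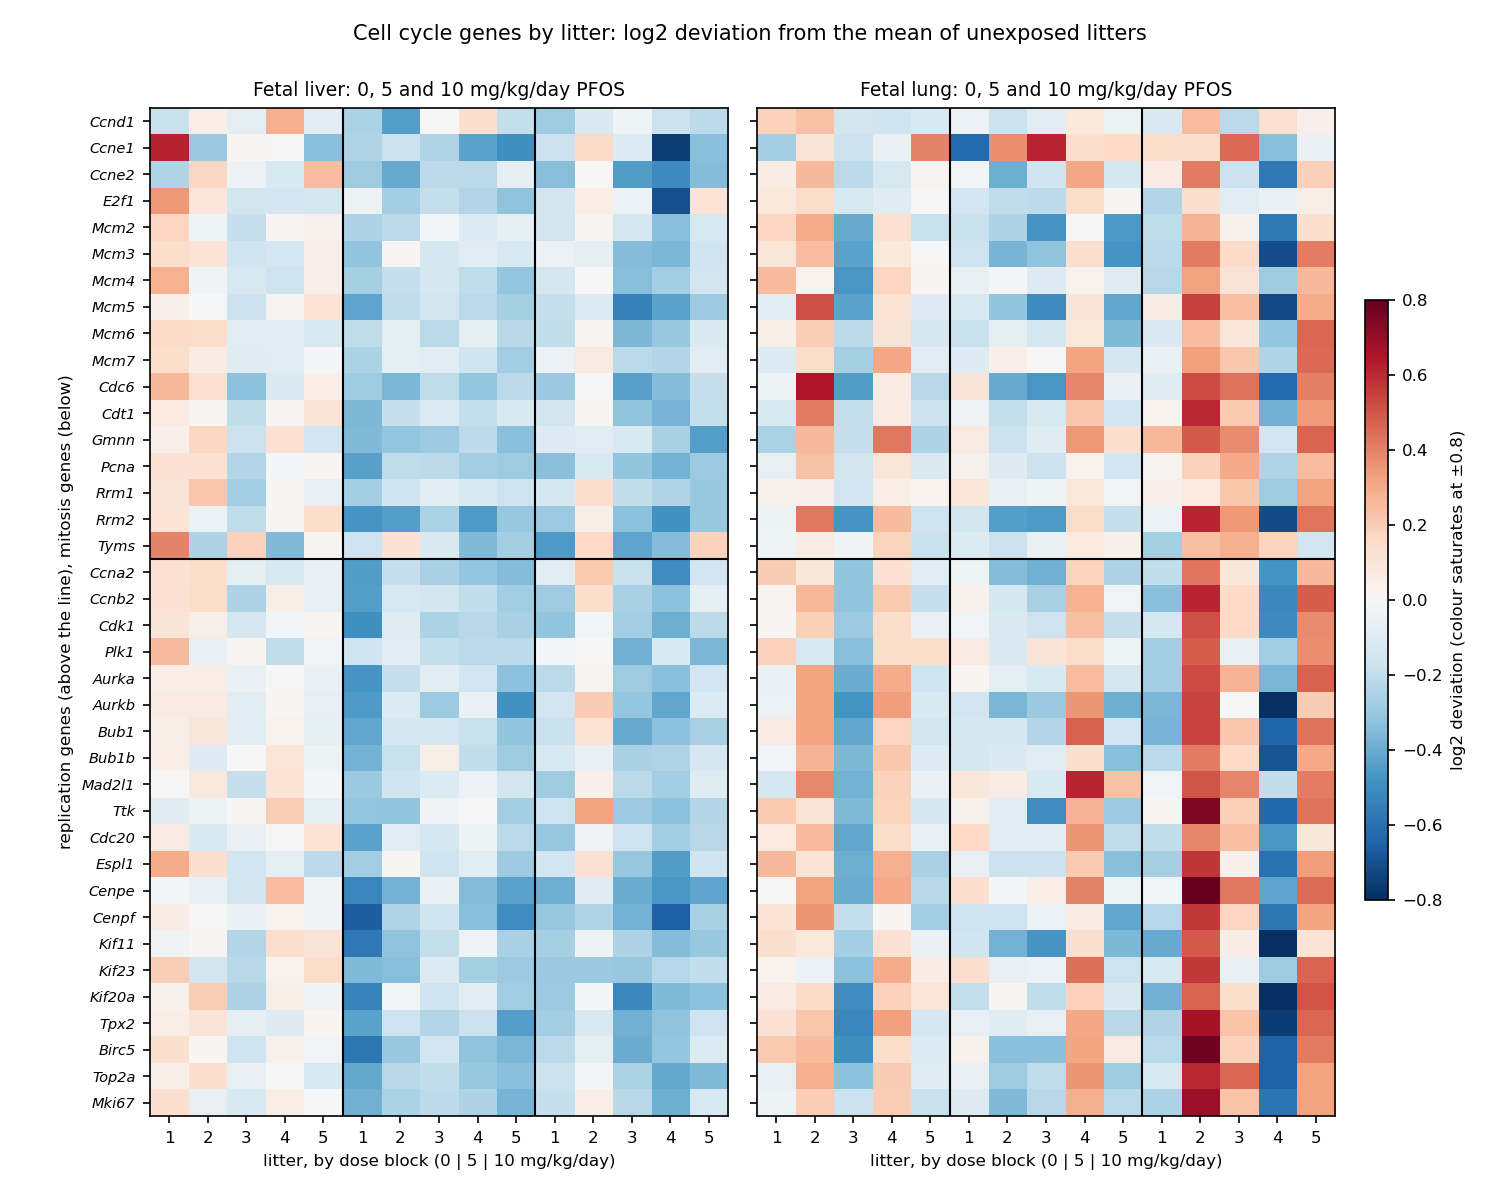
Deviation of each cell cycle gene (rows) in each litter (columns) from the mean of the unexposed litters of the same tissue, in log2 units, blue for lower and red for higher, with the doses 0, 5 and 10 mg/kg/day as blocks from left to right. In liver the columns at 5 mg/kg/day are mostly blue and litter 2 at 10 mg/kg/day is near white, while in lung whole columns are red (litter 2 at 10 mg/kg/day) or blue (litter 4 at 10 mg/kg/day).

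The count of called genes moved with single litters, and the direction did not. On leaving out 1 litter at a time the count at the lower dose ran from 0, without unexposed litter 1, to 11, without unexposed litter 3. It was 4 without unexposed litter 2 or 4, 5 without unexposed litter 5, 1 without exposed litter 1 and 2 without exposed litter 5. For the higher dose it ran from 1, without exposed litter 4, to 12, without exposed litter 2. It was 3 without unexposed litter 1, 2, 4 or 5 or exposed litter 1, and 2 without exposed litter 3. Without the 3 control livers high in Cym it was 1 at each dose, the gene being Kif23, with median changes of -0.28 and -0.24. With the lung arrays in the same fit, which adds their spread, it was 0 at the lower dose and 1 at the higher dose, Pcna. The median change stayed between -0.27 and -0.20 at the lower dose and between -0.26 and -0.16 at the higher dose over the fits without 1 litter.

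Among the 4 genes of G1 to S control, limma called none at either dose, with 1 at an unadjusted p under 0.05 at each. Over all genes 19.8% reached that p at the lower dose and 24% at the higher dose, and 1.81% and 5.22% were called lower. Ccnd1 (cyclin D1), Ccne1 and Ccne2 (cyclins E1 and E2) and E2f1, the founding E2F factor, had changes of -0.15, -0.31, -0.24 and -0.21 at the lower dose and of -0.16, -0.24, -0.33 and -0.15 at the higher dose. Ccne2 came closest, with an adjusted p = 0.0570 at the higher dose. Ccne1 was not called, and its levels in unexposed livers were 8.12, 7.21, 7.52, 7.51 and 7.17, litter 1 being the high one. Its 95% interval at the lower dose ran from -0.68 to 0.05.

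Of the 9 origin licensing genes, 1 fell at each dose, where 1.81% of all genes fell at the lower dose and 5.22% at the higher dose. The median change was -0.19 at the lower dose and -0.20 at the higher dose. Gmnn, geminin, which holds CDT1 inactive after origins have fired, was 8.61, 8.73, 8.39, 8.68 and 8.41 in unexposed livers, 8.21, 8.26, 8.27, 8.36 and 8.23 at the lower dose and 8.46, 8.47, 8.44, 8.30 and 8.12 at the higher dose. All 5 litters at the lower dose lay below the unexposed litters, and those at the higher dose overlapped them. Gmnn fell by 0.30 (SE 0.08, adjusted p = 0.0388) at the lower dose and had a change of -0.20 (adjusted p = 0.132) at the higher dose. Its call was lost without unexposed litter 1, 2 or 4 or exposed litter 1, 2, 3 or 5, with an adjusted p of at most 0.102.

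Mcm5, a subunit of the MCM helicase, was 9.87, 9.84, 9.66, 9.86 and 9.94 in unexposed livers, 9.41, 9.64, 9.69, 9.62 and 9.57 at the lower dose and 9.65, 9.72, 9.29, 9.40 and 9.54 at the higher dose. Single exposed litters reached the lowest unexposed litter at each dose. Mcm5 fell by 0.31 (SE 0.08, adjusted p = 0.0262) at the higher dose and had -0.25 (adjusted p = 0.0957) at the lower dose. The call was lost without unexposed litter 1, 2, 4 or 5 or exposed litter 3 or 4, with an adjusted p of at most 0.0706. The other MCM subunits ran from -0.13 (Mcm3) to -0.22 (Mcm4) at the lower dose and from -0.10 (Mcm7) to -0.20 (Mcm3) at the higher dose. Cdc6 had -0.27 and -0.25 and Cdt1, its partner in loading the helicase, -0.19 and -0.20, and neither was called.

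Of the 4 genes of the fork and of nucleotide supply, 2 fell at the lower dose and 1 at the higher dose. The shares of all genes that fell were 1.81% and 5.22%. Pcna, the sliding clamp of the replicative polymerases, was the brightest of the 38 genes. It was 11.79, 11.79, 11.44, 11.66 and 11.69 in unexposed livers, 11.24, 11.47, 11.46, 11.40 and 11.39 at the lower dose and 11.33, 11.55, 11.36, 11.30 and 11.38 at the higher dose. Unexposed litter 3 was the low one among the unexposed litters and lay within the range of each exposed group. Pcna fell by 0.28 (SE 0.07, adjusted p = 0.0343) and by 0.29 (SE 0.07, adjusted p = 0.0206), lower than the unexposed mean in all 5 litters at each dose. The call was lost at the lower dose without unexposed litter 1, 2, 4 or 5 or exposed litter 1, 4 or 5 (adjusted p at most 0.0907), and at the higher dose without unexposed litter 1 or 2 or exposed litter 4 (at most 0.0559).

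Rrm2 was 10.34, 10.18, 10.02, 10.24 and 10.37 in unexposed livers, 9.76, 9.79, 9.98, 9.78 and 9.93 at the lower dose and 9.94, 10.28, 9.90, 9.75 and 9.92 at the higher dose. The litters at the lower dose lay below all unexposed litters, and at the higher dose litter 2 lay among them. Rrm2 fell by 0.38 (SE 0.09, adjusted p = 0.0187) at the lower dose, the largest change of the 38 genes at that dose, and had -0.27 (adjusted p = 0.0712) at the higher dose. Of 15 fits without 1 litter, 14 called it at the lower dose, and without unexposed litter 1 its adjusted p was 0.0508. Its partner subunit Rrm1 had -0.16 and -0.15, and Tyms had -0.16 and -0.18 from a level of 4.52 in unexposed livers, close to the 40th percentile of all probe sets (4.16 to 4.23 on the liver arrays).

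**Figure D3:**
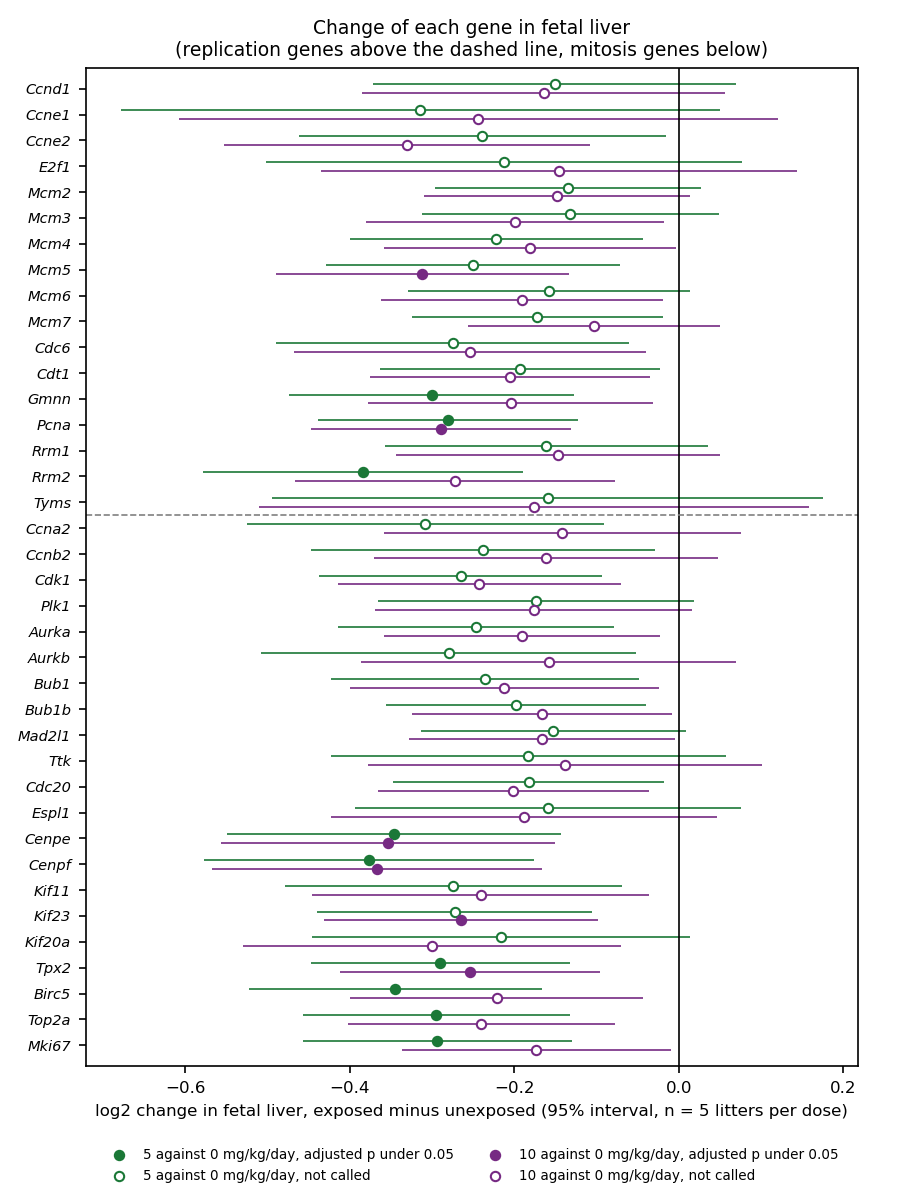
Log2 change of each cell cycle gene in fetal liver at 5 mg/kg/day (green) and 10 mg/kg/day (purple) against unexposed litters, with 95% intervals from limma and filled points for called genes, n = 5 litters per dose. All 76 points lie left of 0, with the filled ones spread over replication and mitosis genes.

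Of the 21 mitosis genes, 6 fell at the lower dose and 4 at the higher dose, and most of the calls were genes of the kinetochore, the spindle and cytokinesis. In that group of 7 genes, 4 were called at each dose. Limma called 1.81% of all genes lower at the lower dose and 5.22% at the higher dose. None of the 6 mitotic cyclins and kinases was called by limma, with 5 and 2 at an unadjusted p under 0.05. None of the 6 genes of the spindle checkpoint and anaphase was called, with 3 and 4 at that p. The share of all genes at that p was 19.8% at the lower dose and 24% at the higher dose.

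Cenpf, a kinetochore protein whose level peaks in late cycle, was 8.17, 8.11, 8.05, 8.14 and 8.08 in unexposed livers, 7.45, 7.87, 7.95, 7.78 and 7.61 at the lower dose and 7.81, 7.87, 7.73, 7.45 and 7.85 at the higher dose. The unexposed litters lay within a narrow band above every exposed litter. Cenpf fell by 0.38 (SE 0.09, adjusted p = 0.0246) and by 0.37 (SE 0.09, adjusted p = 0.0208). With the higher dose it was called in all 15 fits without 1 litter, with an adjusted p of at most 0.0485. At the lower dose the call was lost without unexposed litter 1 or 2 or exposed litter 1 or 5 (at most 0.0688).

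Cenpe, the kinetochore motor that carries chromosomes to the spindle equator, was 7.56, 7.53, 7.44, 7.83 and 7.55 in unexposed livers, 7.06, 7.20, 7.53, 7.24 and 7.15 at the lower dose and 7.19, 7.48, 7.19, 7.12 and 7.16 at the higher dose. Exposed litter 3 at the lower dose and litter 2 at the higher dose reached the unexposed range, and the other exposed litters lay below it. Cenpe fell by 0.35 at each dose (SE 0.10, adjusted p = 0.0419 at the lower dose and 0.0265 at the higher dose). At the lower dose only 4 of 15 fits without 1 litter kept the call, which was lost without unexposed litter 1, 2, 4 or 5, litter 1, 2, 4 or 5 at the lower dose or litter 1, 3 or 5 at the higher dose (at most 0.104). For the higher dose it was lost without unexposed litter 4 or exposed litter 1, 3, 4 or 5 (at most 0.0677).

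Tpx2, which activates the Aurora A kinase on the spindle, was 8.58, 8.63, 8.45, 8.42 and 8.54 in unexposed livers, 8.09, 8.35, 8.29, 8.35 and 8.08 at the lower dose and 8.25, 8.40, 8.14, 8.20 and 8.36 at the higher dose. All exposed litters lay below all unexposed litters, if by a small margin at the higher dose. Tpx2 fell by 0.29 (SE 0.07, adjusted p = 0.0282) and by 0.25 (SE 0.07, adjusted p = 0.0395). The call was lost without unexposed litter 1, 2 or 5 or exposed litter 1 or 5 at the lower dose (at most 0.0800), and without unexposed litter 1, 2 or 5 or exposed litter 1, 3 or 4 at the higher dose (at most 0.105).

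Birc5, survivin, a subunit of the chromosomal passenger complex, was 9.41, 9.29, 9.12, 9.31 and 9.26 in unexposed livers, 8.70, 8.97, 9.12, 8.95 and 8.91 at the lower dose and 9.06, 9.20, 8.88, 8.97 and 9.17 at the higher dose. Litter 3 at the lower dose equalled the lowest unexposed litter to 2 decimals, and the groups overlapped at the higher dose. Birc5 fell by 0.34 (SE 0.08, adjusted p = 0.0207) at the lower dose, a call lost without litter 1 of either group (at most 0.0579), and had -0.22 (adjusted p = 0.112) at the higher dose.

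Kif23 was 8.03, 7.68, 7.61, 7.86 and 7.97 in unexposed livers, 7.48, 7.49, 7.72, 7.57 and 7.54 at the lower dose and 7.53, 7.54, 7.53, 7.60 and 7.63 at the higher dose. The exposed litters at the higher dose were close together at the low end of a wide unexposed range. At the higher dose Kif23 fell by 0.26 (SE 0.08, adjusted p = 0.0418), and at the lower dose it had -0.27 (SE 0.08, adjusted p = 0.0527). Of 15 fits without 1 litter, 5 kept the call at the higher dose, which was lost without unexposed litter 1, 4 or 5, litter 4 or 5 at the lower dose or any litter at the higher dose (at most 0.101). Of the other kinesins, Kif11, which separates spindle poles, had -0.27 and -0.24, and Kif20a, which acts in cytokinesis, had -0.22 and -0.30, and neither was called.

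Top2a, the topoisomerase that untangles sister chromosomes, was 9.24, 9.33, 9.13, 9.19 and 9.07 in unexposed livers, 8.78, 8.97, 8.995, 8.89 and 8.85 at the lower dose and 9.02, 9.18, 8.94, 8.78 and 8.84 at the higher dose. Mki67 was 11.02, 10.82, 10.77, 10.94 and 10.89 in unexposed livers, 10.50, 10.64, 10.68, 10.64 and 10.52 at the lower dose and 10.71, 10.94, 10.67, 10.50 and 10.76 at the higher dose. For both genes the litters at the lower dose lay below all unexposed litters, and those at the higher dose overlapped them. At the lower dose Top2a fell by 0.29 (SE 0.08, adjusted p = 0.0300) and Mki67 by 0.29 (SE 0.08, adjusted p = 0.0325), and at the higher dose they had -0.24 and -0.17 (adjusted p = 0.0571 and 0.181). The lower-dose call of Top2a was lost without unexposed litter 1, 2 or 4 or exposed litter 1, 4 or 5 (at most 0.0830), and that of Mki67 without unexposed litter 1, 4 or 5 or exposed litter 1, 2 or 5 (at most 0.0850).

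The uncalled mitosis genes had changes of the same order. Among cyclins and kinases, Ccna2 (cyclin A2) had -0.31 and -0.14, Ccnb2 (cyclin B2) -0.24 and -0.16, and Cdk1, their kinase partner, -0.27 and -0.24, with Cdk1 closest to a call (adjusted p = 0.0655 and 0.0690). The kinase Plk1, which acts from mitotic entry to exit, had -0.17 and -0.18. Aurka, the Aurora kinase of the spindle poles, had -0.25 and -0.19, and Aurkb, that of the passenger complex, had -0.28 and -0.16. The spindle checkpoint genes Bub1, Bub1b, Mad2l1 and Ttk ran from -0.24 to -0.15 at the lower dose and from -0.21 to -0.14 at the higher dose. Cdc20, which activates the anaphase-promoting complex, had -0.18 and -0.20, and Espl1, separase, which cuts cohesin, had -0.16 and -0.19.

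Replication and mitosis genes were set side by side. After the lower dose 3 of 17 replication genes and 6 of 21 mitosis genes fell, against 1.81% of all genes. Their median changes were -0.21 and -0.27. After the higher dose 2 of 17 and 4 of 21 fell, against 5.22% of all genes, with median changes of -0.20 and -0.20. Within a litter, the median deviation of the mitosis genes minus that of the replication genes averaged -0.01 ± 0.06 in unexposed livers, -0.03 ± 0.07 at the lower dose and -0.00 ± 0.03 at the higher dose (SD, n = 5 each). Litter 1 at the lower dose had the widest gap, with -0.27 for replication and -0.43 for mitosis genes. No test was made of these medians, since the genes were chosen with results known.

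**Figure D4:**
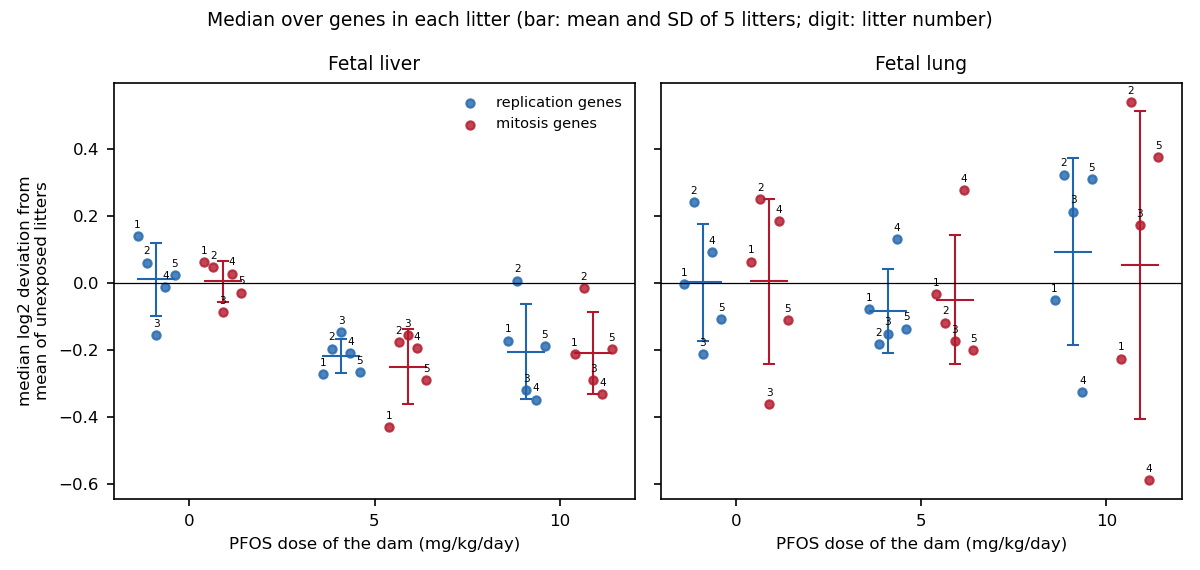
Median log2 deviation of replication genes (blue) and mitosis genes (red) from the mean of unexposed litters, by litter, in fetal liver and fetal lung at 0, 5 and 10 mg/kg/day, with the mean and SD of 5 litters as bars and litter numbers as digits. In liver all litters at 5 mg/kg/day lie between -0.43 and -0.15, and in lung the litters at 10 mg/kg/day run from -0.59 to 0.54 for mitosis genes.

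Between the higher and the lower dose none of the 38 genes was called in liver, where limma called 0.00754% of all genes, 1 of 13269. At an unadjusted p under 0.05 the members also gave 0, against 7.8% of all genes. The median difference was 0.02, and the 95% intervals of single genes together spanned -0.35 to 0.43. The change at the lower dose was the lower one for 23 genes and that at the higher dose for 15. The median difference ran from -0.03 without litter 2 to 0.05 without litter 4 of the higher dose.

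The upstream sequences of the genes differed by role. RefSeq promoter windows of 300 bases, from 250 before the start of transcription to 50 after it, were at hand for 31 of the 39 genes on build GRCm38.p6, Ccnb1 among them. Short motifs were counted on both strands. The cell cycle homology region (CHR), the element that the DREAM complex and B-MYB bind, was searched as TTTGAA or TTCGAA. It was found in 14 of 18 mitosis genes and 2 of 13 replication genes, against 21.7% of 27025 genes in the table. The E2F motif, searched as TTTGGCGC, TTTGCCGC, TTTCGCGC or TTTCCCGC, was found in 6 of 13 replication genes and 1 of 18 mitosis genes, against 2.6%. The CCAAT box, bound by NF-Y, was found as CCAAT in 16 of 18 mitosis genes and 8 of 13 replication genes, against 41.1%. A match is a description of letters and not a bound site. Only these exact words within 300 bases were searched, so a gene without a match may still have such an element.

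The windows of 4 called genes are shown because they differ in these letters. Cenpf (chr1:189688037-189688336, minus strand) has CHR letters at 2 and CCAAT letters at -132 and -71, counted in bases from the start. Cenpe (chr3:135212313-135212612, plus strand) has a CCAAT box alone. Pcna (chr2:132253131-132253430, minus strand) has CCAAT on the opposite strand, printed as ATTGG. Mcm5 (chr8:75109259-75109558, plus strand) has 2 E2F motifs on opposite strands that overlap, and 3 CCAAT boxes. Capitals mark the motif letters, and each sequence reads 5′ to 3′ on the gene's strand.
Cenpf: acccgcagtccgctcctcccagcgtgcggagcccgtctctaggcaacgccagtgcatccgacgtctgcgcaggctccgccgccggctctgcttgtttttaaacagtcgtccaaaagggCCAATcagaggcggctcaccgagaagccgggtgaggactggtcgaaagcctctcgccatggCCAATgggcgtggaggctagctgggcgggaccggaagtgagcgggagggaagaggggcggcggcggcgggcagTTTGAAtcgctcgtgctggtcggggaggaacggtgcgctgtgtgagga
Cenpe: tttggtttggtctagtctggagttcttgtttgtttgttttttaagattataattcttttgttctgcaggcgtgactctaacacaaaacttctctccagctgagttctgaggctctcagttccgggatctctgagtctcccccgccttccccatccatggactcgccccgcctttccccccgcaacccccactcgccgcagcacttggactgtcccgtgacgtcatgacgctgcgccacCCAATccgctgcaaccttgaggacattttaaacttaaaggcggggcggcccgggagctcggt
Pcna: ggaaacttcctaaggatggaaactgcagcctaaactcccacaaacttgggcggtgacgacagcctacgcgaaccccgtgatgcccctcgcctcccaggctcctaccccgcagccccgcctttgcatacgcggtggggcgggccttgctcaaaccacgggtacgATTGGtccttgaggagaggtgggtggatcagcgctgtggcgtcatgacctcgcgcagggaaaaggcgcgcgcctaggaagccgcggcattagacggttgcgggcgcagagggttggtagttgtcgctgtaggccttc
Mcm5: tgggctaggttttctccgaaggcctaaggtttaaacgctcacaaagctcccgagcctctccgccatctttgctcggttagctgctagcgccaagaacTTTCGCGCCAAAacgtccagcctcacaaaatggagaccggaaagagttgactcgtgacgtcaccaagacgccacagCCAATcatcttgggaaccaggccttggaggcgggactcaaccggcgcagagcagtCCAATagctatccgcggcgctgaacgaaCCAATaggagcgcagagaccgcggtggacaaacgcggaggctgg

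The changes in liver were also grouped by these letters. The 14 mitosis genes on the array with CHR letters had median changes of -0.24 at the lower dose and -0.20 at the higher dose, with 3 and 2 genes called. The 6 replication genes with E2F letters had -0.18 and -0.20, with 0 and 1 called. The 9 genes on the array with neither had -0.28 and -0.22, with 4 and 2 called, namely Pcna, Rrm2, Cenpe and Birc5 after the lower dose and Pcna and Cenpe after the higher one. Beside these counts, 1.81% of all genes were called lower at the lower dose and 5.22% at the higher dose. No test was made of these groups.

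Probe sets of a gene did not always move together. Of the 38 genes, 26 had more than 1 probe set, and 23 had at least 2 that passed the filter in liver. Their changes differed in sign for 2 of 23 genes at the lower dose and 5 of 23 at the higher dose. At the level of probe sets, where limma called 1.1% of 27901 sets lower at the lower dose and 3.29% at the higher dose, all tested sets were called for 1 gene at the lower dose, Rrm2, with changes of -0.39, -0.38 and -0.34.

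The widest spread between sets at each dose was that of Mcm3, 0.41 and 0.69, and Cenpf came next with 0.32 and 0.44. Cenpe had 0.02 and 0.28, a wider gap at the higher dose, and differences between sets were not tested. For Cenpf the brightest set, 1427161_at, had -0.38 and -0.37, while 1452334_at had -0.06 and 0.07 from a mean of 5.24 in unexposed livers, and 1458447_at had -0.20 and -0.03 from 4.16. The levels of 1458447_at and of the dimmer Cenpe set, 1439040_at, lay near the 40th percentile of all probe sets. For Cenpe the main set, 1435005_at, had -0.35 at each dose (adjusted p = 0.0548 and 0.0353 over probe sets), and 1439040_at had -0.33 and -0.07 from 4.26, with an SE of 0.18. With probe sets averaged, Cenpf had -0.21 and -0.11 (adjusted p = 0.169 and 0.476), Cenpe -0.34 and -0.21 (0.0641 and 0.225), and Tpx2 -0.20 and -0.07 (0.0234 and 0.421). In the same setting Top2a had -0.15 at the lower dose (adjusted p = 0.280), and at the higher dose Mcm5 had -0.15 (0.362) and Kif23 -0.23 (0.116), which ended those calls.

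**Figure D5:**
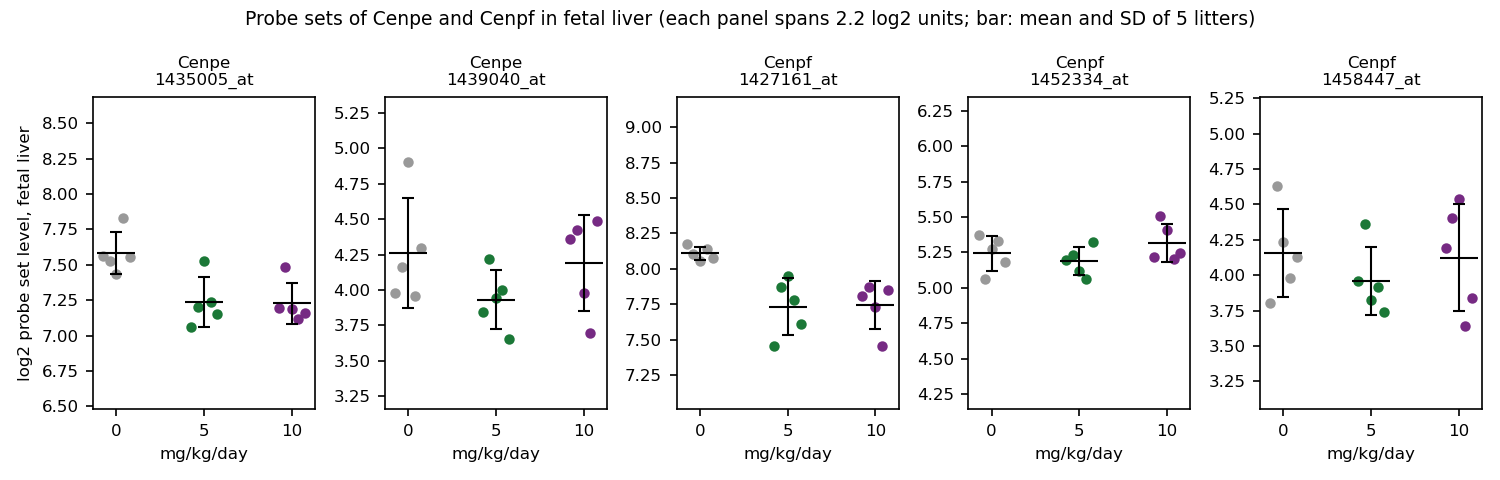
Log2 level of each probe set of Cenpe and Cenpf in fetal liver by litter at 0, 5 and 10 mg/kg/day, with the mean and SD of 5 litters as bars. The brightest set of each gene (1435005_at and 1427161_at) has a lower mean at both doses. Only for 1427161_at do all exposed litters lie below all unexposed litters, and the other sets overlap at both doses.

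Other genes gave the opposite picture. Mcm3 was not called on its brightest set, 1420028_s_at (-0.13 and -0.20), but 1426653_at had -0.32 and -0.31 (adjusted p = 0.0445 and 0.0346), and 1420029_at, a dim set, had 0.09 and 0.37. Ccne1 had -0.44 (adjusted p = 0.0352) at the lower dose on 1416492_at, against -0.31 on its main set. All 3 sets of Rrm2 had changes of -0.28 to -0.23 at the higher dose, none called.

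In fetal lung no cell cycle gene was called at either dose, and none reached an unadjusted p under 0.05, where 4.62% of genes did at the lower dose and 6.91% at the higher dose. Limma called 0.0155% of all lung genes at the lower dose and 0.0543% at the higher dose. The median change of the 37 genes was -0.06 at the lower dose, with 28 below 0 (48% of all genes), and 0.07 at the higher dose, with 7 below 0 (47.8%). Leaving out 1 lung litter moved these medians between -0.16 (without unexposed litter 3) and -0.02 (without unexposed litter 2) at the lower dose, and between -0.04 (without exposed litter 2) and 0.21 (without exposed litter 4) at the higher dose. Between the higher and the lower dose 0 genes were called (0% of all genes) and 0 reached an unadjusted p under 0.05 (2.3%), with 2 of 37 below 0 (50.1%) and a median of 0.13, which ran from 0.01 without litter 2 to 0.28 without litter 4 of the higher dose. The lung 95% interval held the liver change of the same gene for 34 of 37 genes at the lower dose and 29 of 37 at the higher dose, so for these genes a change of that size could not be told from none. It left the liver change out for the others, among them Pcna at the higher dose, with a lung interval of -0.11 to 0.32 and a liver change of -0.29, and Cenpe at each dose.

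The lung litters varied widely in these genes. The median SD of the 37 genes was 0.26 in unexposed lungs, 0.20 at the lower dose and 0.42 at the higher dose, against 0.13, 0.12 and 0.13 over all genes. In liver it was 0.14, 0.12 and 0.15, against 0.13, 0.13 and 0.13. The median deviation of the 37 genes was 0.03, 0.25, -0.34, 0.15 and -0.11 in unexposed lungs 1 to 5, -0.06, -0.14, -0.17, 0.21 and -0.15 at the lower dose and -0.20, 0.50, 0.19, -0.52 and 0.34 at the higher dose. Litters 2 and 5 at the higher dose were high, litter 4 was low, and the unexposed litters spanned much of that range. Mki67 in lung was 8.66, 8.90, 8.53, 8.90 and 8.52 without PFOS, 8.60, 8.35, 8.48, 8.99 and 8.49 at the lower dose and 8.45, 9.38, 8.93, 8.11 and 9.02 at the higher dose. The highest and the lowest level of Mki67 were both found at the higher dose. Hepatocyte markers also varied between lung litters, with median deviations of 0.59, -0.55, -0.36, 0.61 and -0.18 in unexposed litters 1 to 5 and of -1.09, 0.24, -0.04, -0.24 and 0.26 at the higher dose. Cardiac muscle markers had 1.48, -0.29, -1.01, -0.60 and 0.51 in unexposed litters and -0.15, 0.42, 0.89, 0.03 and 1.88 at the higher dose. Their median change was -0.23 at the lower dose and 0.72 at the higher dose, with none of 7 called. The part of these markers in the spread of the cell cycle genes was not tested.

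The liver change minus the lung change was not called for any of the 37 genes at either dose, where limma called 0.504% of 12310 genes lower at the lower dose and 1.78% at the higher dose. The median difference was -0.17 at the lower dose, with 34 of 37 below 0 (52.9% of all genes), and -0.28 at the higher dose, with 37 of 37 below 0 (57.4%). Without 1 litter it ran from -0.23 (unexposed lung 2) to -0.09 (lung 4 of that dose) at the lower dose, and from -0.42 (lung 4 of that dose) to -0.18 (lung 2 of that dose) at the higher dose. At an unadjusted p under 0.05 there were 0 genes at the lower dose and 3 at the higher dose, against 11.8% and 16.5% of all genes. Those 3 were Pcna, with -0.39 (adjusted p = 0.0779), Gmnn, with -0.49, and Cenpe, with -0.61. Without litter 4 of the lungs at the higher dose 3 genes were called, and 1 was called without litter 2 or 4 of the unexposed lungs, litter 3 of the unexposed livers or litter 2 of the livers at the higher dose.

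Some genes of the same pathways outside the list fell in liver too. The lists used here, and the regulator and marker lists below, were also chosen with earlier results of these data known. Of 40 other replication genes 2 (5%) fell at the lower dose and 6 (15%) at the higher dose, with median changes of -0.17 at each dose. Of all genes tested 1.81% fell at the lower dose and 5.22% at the higher dose. Uhrf1, which keeps DNA methylation through replication, fell at both doses (-0.29 and -0.27). The helicase subunit gene Gins3 fell by 0.24 at the lower dose. At the higher dose Cdc45 (replicative helicase), Prim2 (primase), Rpa2 (single-strand binding) and Chaf1b (chromatin assembly) fell by 0.25 to 0.32. Of 46 other mitosis genes 4 (8.70%) fell at each dose, with median changes of -0.22 and -0.17. The chromokinesin gene Kif4 (-0.27 at each dose) and the condensin gene Smc2 (-0.31 and -0.28) fell at both. Fbxo5, an inhibitor of the anaphase-promoting complex, and Sgo1, which protects cohesin, fell by 0.36 and 0.37 at the lower dose, and Kif2c, a microtubule-depolymerising kinesin, and Anln, anillin, fell by 0.29 and 0.32 at the higher dose. In lung limma called none of the 40 other replication genes tested, with 1 and 0 at an unadjusted p under 0.05. It called none of the 43 other mitosis genes tested, with 0 and 3 at that p, which 4.62% and 6.91% of all genes reached. Of the 43 other mitosis genes tested in both tissues, 1 (2.33%) was called lower in the liver change minus the lung change at the higher dose. The share over all 12310 genes was 1.78%. That gene was the condensin gene Ncaph, singled out after its values were seen, at -0.46 (limma adjusted p = 0.0232).

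Transcriptional regulators of the cycle were mostly not called. Of 17 regulators tested in liver 0 fell at the lower dose, against 1.81% of all genes, with 6 at an unadjusted p under 0.05 (19.8% of all genes). At the higher dose 1 fell, the repressor gene E2f7, by 0.31 (limma adjusted p = 0.0303). That is 5.88% of the regulators, close to the 5.22% of all genes that fell. Foxm1, a driver of the mitotic genes, had -0.02 and 0.07, Mybl2, which encodes B-MYB, had 0.01 and 0.18, and Myc had 0.03 and 0.08, none called. Of 10 cyclin-dependent kinase inhibitors and partners of the G1 kinases, 1 fell at the lower dose. It was Cdkn2c, which encodes p18, by 0.45 (limma adjusted p = 0.0253). None was called at the higher dose, with 2 at an unadjusted p under 0.05 (24% of all genes). Cdkn1a, which encodes p21, averaged 8.24 ± 0.26 at the lower dose and 7.92 ± 0.32 in unexposed livers, a change of 0.32 (adjusted p = 0.239), and had 0.08 at the higher dose. Cdkn1c, which encodes p57, had -0.47 and -0.51 (adjusted p = 0.166 and 0.0997).

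Some markers of blood-forming cells also fell in liver. Of 14 erythroid markers tested, 4 fell at the lower dose, namely Hemgn, Klf1, Ermap and Tspan33, by 0.35 to 0.42. All 14 changes were below 0, with a median of -0.29. Of all genes 1.81% fell at that dose and 54% had a change below 0. At the higher dose 0 were called, against 5.22% of all genes that fell, and 12 of 14 changes were below 0 (56.5% of all genes). An unadjusted p under 0.05 was reached by 5 (24% of all genes), and the median was -0.16. By litter the erythroid median was 0.17, 0.06, -0.10, -0.12 and 0.005 in unexposed livers and between -0.35 and -0.19 at the lower dose. It was -0.27, 0.09, -0.07, -0.38 and -0.10 at the higher dose, where litter 2 was the highest and litter 4 the lowest, as for the cell cycle genes. In unexposed livers litter 1 was the highest for both, but the lowest was litter 4 for erythroid and litter 3 for cell cycle genes. At the lower dose the lowest was litter 5 for erythroid and litter 1 for cell cycle genes. The log2 of the summed level of the 15 matched erythroid genes ran from 14.22 to 14.43 in unexposed livers, from 14.01 to 14.15 at the lower dose and from 14.07 to 14.44 at the higher dose. The probe set of the globin gene Hba-a1 lay below the 40th percentile in liver, at 2.73 in unexposed litters.

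Of 12 granulocyte and monocyte markers 0 fell at the lower dose, with 2 at an unadjusted p under 0.05 (19.8% of all genes). At the higher dose 4 fell, Elane, Prtn3, Ltf and Itgam, by 0.37 to 0.49, and the list medians were -0.16 and -0.32. Beside these and the lists below, 1.81% of all genes fell at the lower dose and 5.22% at the higher dose. Of 8 hepatocyte markers 0 fell at the lower dose, with 1 at an unadjusted p under 0.05, and 2 at the higher dose, Apoa1 and Ahsg, by 0.17 and 0.18, with medians of -0.06 and -0.10. Of 8 mesenchyme markers 1 and 3 fell, with 6 and 7 changes below 0 and medians of -0.22 and -0.32. The highest mesenchyme change at the higher dose was 0.32. Of 6 megakaryocyte markers none was called, with 6 changes below 0 at each dose and medians of -0.13 and -0.14. Of 6 B lineage markers none was called, with 6 and 4 changes below 0 and medians of -0.27 and -0.07. The part of these cell types in the changes of the cell cycle genes was not tested.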

How the data were processed

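RNA of 30 fetal liver and lung pools was measured on Affymetrix mouse arrays, 1 array per litter. The deposited values are log2 probe set levels made with RMA, per the submitters' processing notes. RMA corrects background, normalizes between arrays and summarises probes, and can shrink the changes of dim sets. Its version is not given in the sources used here.

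The platform annotation gives 1 gene symbol to 34945 of 45101 probe sets, several to 932 and none to 9160, and 64 are controls. A gene was represented by its brightest single-symbol set over all arrays, and tested in a tissue where this set exceeded the 40th percentile on 5 or more of 15 arrays. The main model was limma 3.58.1 (R 4.3.3) per tissue, with a mean for every dose, empirical Bayes and two-sided p-values under Benjamini-Hochberg adjustment. Tissues were compared, and their changes subtracted, in a fit of all 30 arrays over 12310 genes. The fit was tested on simulated data. Promoter windows came from RefSeq on GRCm38.p6, with 31 of 39 symbols matched, and figures were drawn with matplotlib 3.10.9.

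The members, their roles and the other lists were chosen with earlier results of these data known. All members may be named. Of the other lists the genes called between doses within a tissue are named, at most 6 per list by smallest adjusted p. Called mesenchyme and gastric markers are not named. Foxm1, Mybl2, Cdkn1a, Cdkn1c and Myc are always named. Alternatives changed the filter (none, or the 60th percentile), the scaling, the arrays fitted together, the probe set rule, the spread model and the array weights, added the replicate number as a block, or left out each litter. The number of litters limits the precision.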

Additional observations from a re-analysis of the deposited data

Results flagged for a closer look

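In 5 of 240 sets of 5 litters a single litter stood apart from the others by Dixon's criterion, where chance gives about 12. In liver at 10 mg/kg/day litter 2 was high for Ttk, at 7.01 against 6.52 in the next litter, and for Cenpe, at 7.48 against 7.19. In lung at 5 mg/kg/day litter 4 was high for Bub1, at 6.90 against 6.29. In unexposed lung litter 3 was low for Rrm1, at 7.63 against 7.81, and for Kif20a, at 5.13 against 5.69.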

How the results depend on the processing

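The direction in liver held under every alternative with 1 value per gene, including each fit without 1 litter. Over the 38 genes 1024 of 1024 changes were below 0 for the dose of 5 mg/kg/day, and 1024 of 1024 for 10 mg/kg/day. These fits share arrays, so the changes are not independent. Taken singly, probe sets of a gene differed in sign for 2 of 23 genes at 5 mg/kg/day and 5 of 23 at 10 mg/kg/day. The counts of calls did not hold. The number of the 38 genes lower at 5 mg/kg/day was 9, against 0 with both tissues in 1 fit and 1 without control litters 2, 3 and 5, a setting chosen after seeing the data. At 10 mg/kg/day it was 6, against 1 with both tissues in 1 fit, 2 with probe sets averaged, 10 with a trended and robust spread and 1 without those control litters. Leaving out 1 litter gave 0 to 11 genes for the lower dose, 1 to 12 for the higher dose, and 0 to 3 for the liver change minus the lung change at 10 mg/kg/day. The cause of these moves was not tested. The median change over all the cell cycle genes moved by less than the spread between litters. Of the medians taken by role, 1 moved by more, with the probe set of the largest interquartile range standing for each gene.

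With the replicate number as a block, 5 genes were lower after the lower dose and 4 after the higher dose, and 1 gene was called in the liver change minus the lung change at 10 mg/kg/day. The numbers are not taken to pair the samples. Across doses 3 of 15 liver arrays and 3 of 15 lung arrays correlated best with their own number. Between liver and lung of a dose 13 of 15 did, with r from 0.00 to 0.35 and above 0.1 in 12 of 15, a hint from the data and not the design. Other scalings shifted the median of all genes by under 0.1.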

Other observations

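Litters with the same number and dose lay alike in liver and lung in places. At 10 mg/kg/day litter 2 had the highest median deviation of the cell cycle genes in both tissues (0.00 in liver and 0.50 in lung), and litter 4 the lowest (-0.35 in liver and -0.52 in lung). Among unexposed litters, litter 3 had the lowest in both (-0.14 in liver and -0.34 in lung). At 5 mg/kg/day litter 1 was lowest in liver (-0.37) and litter 3 in lung (-0.17). The labels do not say that equal numbers mark the same litter.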
